A study of Mus musculus with 45 samples.

Results

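Immediate early transcription factors are DNA-binding proteins, many of whose genes are switched on within minutes of a stimulus, before any new protein has to be made. 10 genes grouped under this name were followed here: Fos, Fosb, Fosl1, Fosl2, Jun, Junb, Egr1, Egr2, Egr3 and Nr4a1. They were found by symbol among the 27007 genes of the deposited table of read counts, and all 10 were present. Of these, 9 passed the filter on low counts and were tested, and Fosl1 did not pass it.

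The members belong to the FOS, JUN and EGR families and to the nuclear receptors. FOS proteins pair with JUN proteins through a leucine zipper to form AP-1, which binds DNA and changes the transcription of growth, matrix and inflammatory genes. The EGR proteins bind GC-rich sites with zinc fingers, and Nr4a1 (also called Nur77) is an orphan nuclear receptor. In many cell types these genes are induced through MAP kinases acting on the serum response factor and its partners and through CREB, and their mRNAs decay quickly. In the heart they are known to be induced early after a rise in load or a hypertrophic stimulus.

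RNA was sequenced from left ventricles of wild-type mice at 4, 6 and 8 weeks of age. Within 24 hours of birth the pups had undergone one of 3 operations, constriction of the aorta (nAAC), a constriction that can be undone (Rev-nAAC) or sham surgery, and they were kept with and nursed by their mothers. Each of the 9 combinations of operation and age held 5 libraries of total RNA, 45 in all. The labels do not say when the reversible constriction was released, nor outright that each library is a separate animal, so the p-values measure the spread between libraries.

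Library totals ran from 31586082 to 35965976 counts, and levels are given as CPM, a gene's count relative to the library's total after TMM scaling for composition. The library nAAC 4 weeks replicate 1 is titled as nAAC while its treatment tag reads sham, and it was kept with nAAC. Replicate 5 of the same group correlated least with its own group, at a median r of 0.974. Red cell markers summed to 10250 CPM in Rev-nAAC 4 weeks replicate 2, whose neutrophil markers summed to 181 CPM. Adipocyte markers summed to 40.1 CPM in Rev-nAAC 8 weeks replicate 4 and to 30.6 CPM in sham 4 weeks replicate 1, against at most 0.936 CPM in the other libraries. These 5 libraries were left out together in an alternative fit chosen after the data were seen. Read from Xist and Y-linked genes, all 15 sham libraries were male, whereas 3, 4 and 2 of the 5 nAAC libraries and 2, 2 and 4 of the 5 Rev-nAAC libraries were female at 4, 6 and 8 weeks. Sex was therefore partly tied to operation, and a fit with sex as a covariate is given where it changed a call.

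Cardiomyocyte markers identified the tissue, with 7 of 7 genes detected in every library and a summed level of 25780 to 58830 CPM. Other marker lists differed between the operations too. The 5 fibroblast genes, none of which was at 0 in any library, summed to 650 to 1399 CPM in sham, 1480 to 2448 CPM in nAAC and 792 to 2302 CPM in Rev-nAAC. The 7 cardiomyocyte genes summed to 39840 to 58830 CPM in sham, 25780 to 38140 CPM in nAAC and 26480 to 47550 CPM in Rev-nAAC. In nAAC at 4 weeks each library was below each sham library for the endothelial sum (804.8 to 1053 against 1187 to 1355 CPM) and the smooth muscle and mural sum (850.1 to 1219 against 1305 to 1609 CPM), and at 6 and 8 weeks these overlapped. The Schwann and nerve sum and the mitochondrial share of counts did not overlap at any age, with 1.03 to 6.07 CPM in nAAC against 4.44 to 8.10 CPM in sham, and 18.7% to 27.9% against 23.9% to 32.3%, over the ages. Neutrophil genes summed to 1.32 to 6.81 CPM in sham, 2.40 to 23.8 CPM in nAAC and 2.51 to 181.4 CPM in Rev-nAAC. T and B cell genes, at low levels, summed at 6 weeks to 1.42 to 7.21 CPM in nAAC against 0.347 to 0.587 CPM in sham. At 8 weeks these sums were 1.21 to 2.75 against 0.178 to 0.573 CPM, and at 4 weeks they overlapped. Macrophage sums at 4 weeks, which overlapped, had means of 184.1 CPM in nAAC and 293.6 CPM in sham. In bulk tissue, fewer cells of a type and less RNA per cell cannot be told apart, and the part of these shifts in the member results was not tested. The 4 atrial genes varied, with sums from 1.355 CPM in sham 8 weeks replicate 1 to 338.5 CPM in nAAC 6 weeks replicate 1. Bmp10 was at 0 in 35 of 45 libraries, while Myl4 was at 0 in none and reached 169.6 CPM. The part of atrial tissue in the member levels was not tested.

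The promoters of 3 members are shown because their genes followed different patterns across the operations: Egr2, which was higher in nAAC than in sham at each age, Fos, whose level moved with that of Egr1 from library to library, and Nr4a1, which was highest in Rev-nAAC at 8 weeks. Each is the 250 bases before the RefSeq start on the gene's strand (GRCm38.p6), with matches to the motifs below in capitals.
Egr2 promoter, chr10:67537619-67537868, plus strand: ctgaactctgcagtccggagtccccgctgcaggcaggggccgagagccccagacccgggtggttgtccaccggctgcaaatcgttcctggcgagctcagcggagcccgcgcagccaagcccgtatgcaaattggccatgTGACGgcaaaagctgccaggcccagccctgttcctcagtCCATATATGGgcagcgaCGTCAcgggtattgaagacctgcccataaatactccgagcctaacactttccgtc
Fos promoter, chr12:85473640-85473889, plus strand: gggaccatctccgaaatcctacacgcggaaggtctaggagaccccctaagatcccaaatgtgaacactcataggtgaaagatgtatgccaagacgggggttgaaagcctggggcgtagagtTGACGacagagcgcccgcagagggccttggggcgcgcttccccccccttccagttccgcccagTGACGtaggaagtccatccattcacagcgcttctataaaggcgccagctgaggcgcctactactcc
Nr4a1 promoter, chr15:101266596-101266845, plus strand: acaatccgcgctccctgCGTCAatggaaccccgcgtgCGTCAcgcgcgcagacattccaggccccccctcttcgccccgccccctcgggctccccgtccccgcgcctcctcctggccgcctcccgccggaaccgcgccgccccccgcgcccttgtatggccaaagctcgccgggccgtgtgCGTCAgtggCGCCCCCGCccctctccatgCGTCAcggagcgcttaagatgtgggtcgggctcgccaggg

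RefSeq windows were at hand for 7 members, 11 windows in all, since Egr2 has 5 annotated starts. Motifs were searched on both strands. The serum response element, searched as the CArG box, was found in 4 of the 5 Egr2 windows and in no window of the other 6 members, beside 1.47% of all 32817 windows of this length. The Egr2 windows that start at 67537619, 67537620 and 67537680 overlap and hold the same match, so they do not count as separate sites. The core of the cAMP response element, TGACG, was found in windows of Fos, Fosb, Junb, Egr2 and Nr4a1, beside 17.7% of all windows, with 4 copies in Nr4a1. The full element TGACGTCA (1.55% of all windows), which contains that core, and the AP-1 site TGANTCA (6.75%) had no match in the 11 windows. The EGR site GCGNGGGCG was found in Fosb, Fosl2 and Nr4a1, beside 4.70% of all windows, and TATAAA, which is not capitalised, in Fos, beside 12.4%. These are letter matches and not measured binding. Sites outside the 250 bases before each start were not searched, so a member without a match may hold the motif elsewhere.

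In sham hearts the levels per kilobase of exon, over 15 libraries, ran in the order Jun, Nr4a1, Junb, Egr1, Fosl2, Fos, Egr3, Egr2, Fosb and Fosl1. Jun stood at 17.4 ± 3.70 CPM per kilobase (SD, n = 15) and Nr4a1 at 10.03 ± 6.08. Egr3 stood at 0.584 ± 0.237, Egr2 at 0.333 ± 0.134 and Fosb at 0.0916 ± 0.0589. The ranges of each pair of neighbours in that order overlapped. These sham libraries span the 3 ages. Lengths here and below are all GENCODE exons of a gene merged, from 2033 bases for Fosl1 to 9680 for Fosl2. The annotation used for the counting is not given, so comparisons of levels per kilobase between genes rest on these lengths.

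Compared with sham, members called at an adjusted p of 0.05 or less were higher in nAAC and none was lower. In nAAC, 7 of 9 tested members were higher at 4 weeks, where 19.5% of all genes tested were called higher. At 6 weeks 5 of 9 were higher, beside 24.5% of all genes, and at 8 weeks 5 of 9, beside 23.8%. The median log2 difference of the 9 members was 1.65, 0.80 and 1.05 at 4, 6 and 8 weeks, where that of all genes lay between -0.03 and 0.02. Egr2 and Egr3 were called at every age. In 3, 2 and 4 members all nAAC libraries were above all sham libraries at 4, 6 and 8 weeks, beside 10.8%, 18.3% and 18.4% of all genes. Without replicate 3 of nAAC at 4 weeks the count at that age was 3 of 9, and without the 5 libraries named above it was 9 of 9. The latter fit kept replicate 3, the highest nAAC library of that age for all 9 members. It left out nAAC replicates 1 and 5, the lowest for 3 and 4 members. Sham replicate 1, also left out, was the highest of its group for 3 and the lowest for 1. The 8-week count was 3 without sham replicate 1 or 5 or nAAC replicate 2 or 4.

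In Rev-nAAC against sham, 3 of 9 members were higher at 4 weeks (12.2% of all genes), 5 at 6 weeks (8.66%) and 3 at 8 weeks (18.3%), and none was lower. All Rev-nAAC libraries were above all sham libraries in 2, 5 and 3 members, beside 8.62%, 5.54% and 10.1% of all genes. The 6-week count fell to 1 without Rev-nAAC replicate 4 or without sham replicate 1, and lay between 2 and 4 without sham replicates 2 to 5 or Rev-nAAC replicates 2, 3 or 5. The 8-week count lay between 0 and 2 without any of 9 of the 10 libraries compared, sham replicate 4 being the other. In Rev-nAAC against nAAC no member was called at 4 weeks, where 2.55% of all genes were called in either direction, and 1 of 9, Egr2, had an unadjusted p at or under 0.05. DESeq2 called 1 member there and limma voom 0. At 6 weeks 3 members were lower (12.1% of all genes) and at 8 weeks 2 (16%), and in 2 members at each of these ages all Rev-nAAC libraries were below all nAAC libraries (8.15% and 9.91%). The comparisons at an age share libraries, so their calls are not independent.

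**Figure D1:**
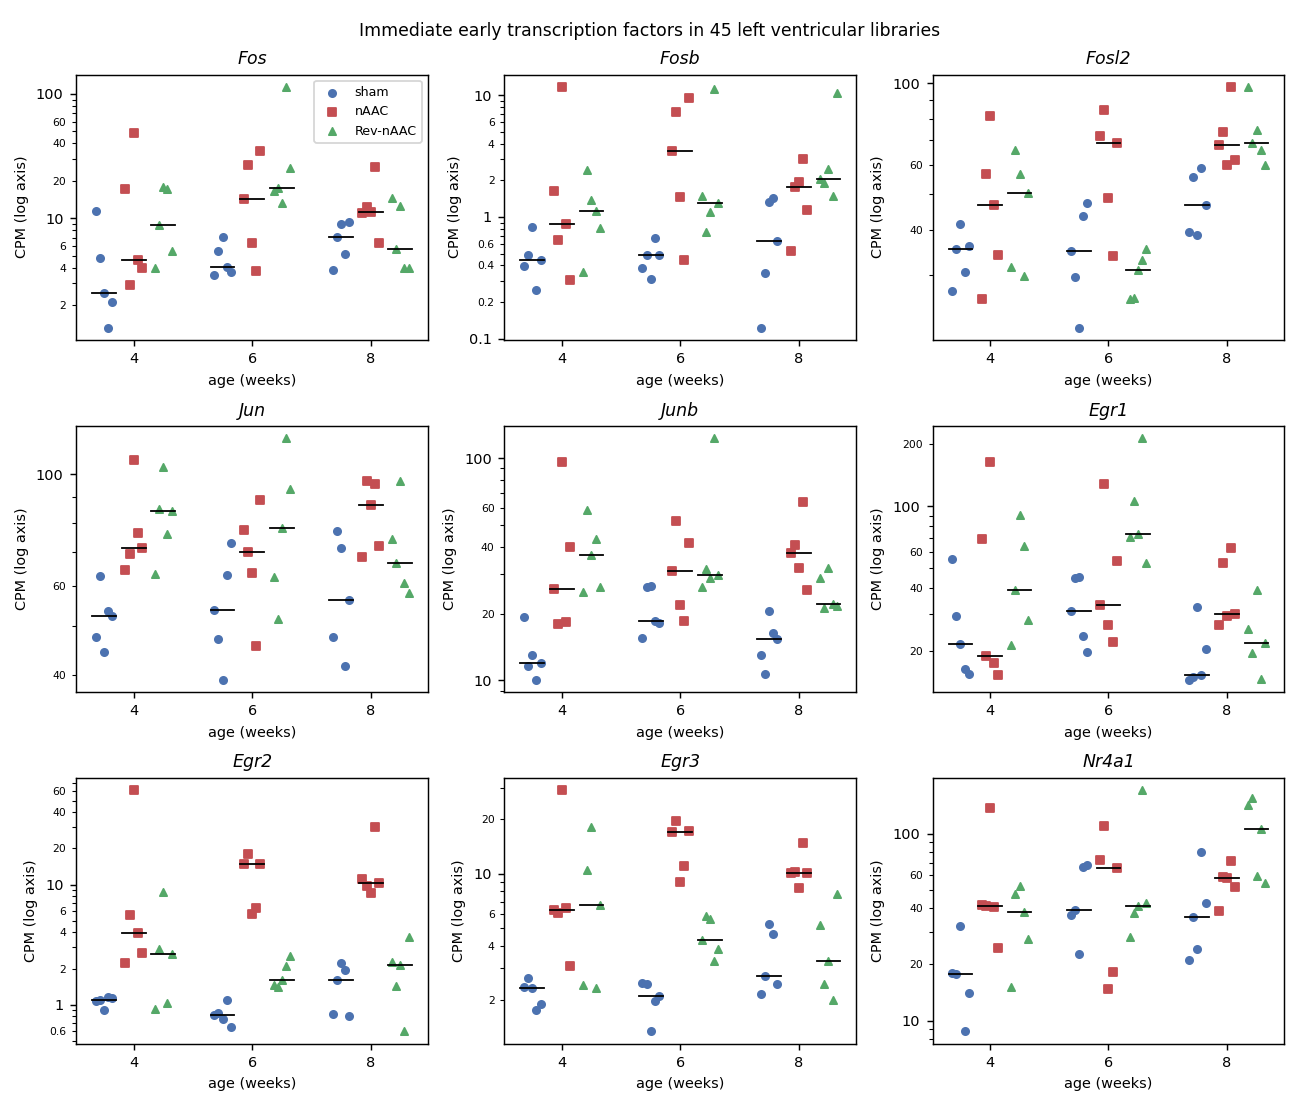
Level of each of the 9 tested members in all 45 libraries, as CPM on a log axis, by age in weeks, with circles for sham, squares for nAAC, triangles for Rev-nAAC and a bar at each group's median. Egr2 and Egr3 were above every sham library in each nAAC library of their age, while Fos, Junb and Egr1 showed single libraries far above their group, such as the 114.5 CPM of Fos in Rev-nAAC at 6 weeks.

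The EGR family held both members that were called at each age in nAAC. Egr2 (chromosome 10, 67535475 to 67542188, plus strand, GRCm38), a zinc finger factor best known from myelination and lymphocyte tolerance, was present at 1.07, 1.10, 0.898, 1.16 and 1.14 CPM in the sham libraries of 4 weeks. The sham libraries of 6 weeks held 0.820, 0.847, 0.754, 1.09 and 0.656 CPM, and those of 8 weeks 0.831, 1.59, 2.23, 1.96 and 0.803 CPM. Sham levels were thus low, close together at 4 and 6 weeks and more spread at 8 weeks. In nAAC the libraries held 2.22, 5.59, 60.8, 3.97 and 2.71 CPM at 4 weeks, with replicate 3 far above the rest. They held 14.7, 18.1, 5.67, 6.39 and 14.9 CPM at 6 weeks and 11.2, 9.69, 8.45, 30.4 and 10.2 CPM at 8 weeks. Each nAAC library was above each sham library of its age. In Rev-nAAC the values were 0.927, 2.90, 8.64, 1.03 and 2.62 CPM at 4 weeks. They were 1.47, 1.41, 1.62, 2.104 and 2.56 CPM at 6 weeks and 2.29, 1.43, 2.12, 0.598 and 3.68 CPM at 8 weeks, all below each nAAC library of those ages.

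In nAAC against sham, Egr2 was 14-fold higher at 4 weeks (log2 3.81, SE 0.72, adjusted p = 5.71e-05). It was 14.3-fold higher at 6 weeks (log2 3.84, SE 0.74, adjusted p = 4.58e-05) and 9.40-fold higher at 8 weeks (log2 3.23, SE 0.69, adjusted p = 1.90e-04). Replicate 3 set the size at 4 weeks: without it the log2 difference was 1.75, still past the threshold (adjusted p = 0.00641). Against nAAC, Egr2 in Rev-nAAC was 6.51-fold lower at 6 weeks (log2 -2.70, SE 0.67, adjusted p = 0.00260) and 6.91-fold lower at 8 weeks (log2 -2.79, SE 0.67, adjusted p = 0.00143), and both calls held without each library in turn. At 4 weeks the difference was log2 -2.22, SE 0.64, adjusted p = 0.0529. The size rested on nAAC replicate 3, at 60.8 CPM: without it the difference was -0.16 (adjusted p = 0.936), and with limma voom it was -1.55 (0.172). It passed the threshold without nAAC replicate 1, 2, 4 or 5 or Rev-nAAC replicate 3 (adjusted p 0.0104 to 0.0415, log2 -3.01 to -2.43), with DESeq2 (0.0155), with nAAC replicate 1 counted as sham (0.0131) and without the 5 libraries named above (0.0110).

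Against sham, Egr2 in Rev-nAAC missed the threshold at each age. The log2 differences were 1.59 (95% interval 0.16 to 3.02) at 4 weeks, 1.14 (-0.39 to 2.66) at 6 weeks and 0.44 (-0.96 to 1.85) at 8 weeks. With sex as a covariate the 4-week difference was 1.90 (adjusted p = 0.0421), with DESeq2 it was 1.61 (0.0408), and with only the compared groups in the fit the 6-week difference was called (0.00728). Without Rev-nAAC replicate 3 the 4-week difference was 0.80 (0.473), and with limma voom it was 0.70 (0.5005). All 5 Rev-nAAC libraries of 6 weeks were above all 5 sham libraries of that age.

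Egr3 (chromosome 14, 70077203 to 70082614, plus strand), a relative of Egr2 known from muscle spindles and lymphocytes, followed the same order of groups. Its sham libraries held 2.35, 2.65, 2.34, 1.76 and 1.90 CPM at 4 weeks, 2.49, 2.44, 1.34, 1.97 and 2.11 CPM at 6 weeks and 2.15, 2.72, 5.30, 4.65 and 2.44 CPM at 8 weeks. The nAAC libraries held 6.33, 6.09, 29.0, 6.47 and 3.08 CPM at 4 weeks, 17.1, 19.7, 9.03, 11.01 and 17.3 CPM at 6 weeks and 10.1, 10.2, 8.37, 14.7 and 10.1 CPM at 8 weeks. As for Egr2, the nAAC and sham libraries of an age did not overlap. In Rev-nAAC, where the libraries of 6 and 8 weeks lay below nAAC, the values were 2.43, 10.5, 18.1, 2.32 and 6.68 CPM at 4 weeks. They were 4.29, 5.81, 5.63, 3.28 and 3.81 CPM at 6 weeks and 5.17, 2.44, 3.28, 1.99 and 7.72 CPM at 8 weeks. At 4 weeks Rev-nAAC replicates 1 and 4 were within the sham range and replicates 2, 3 and 5 were above it.

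Egr3 gave a log2 difference between nAAC and sham of 2.21 at 4 weeks (SE 0.48, adjusted p = 3.44e-04), 2.84 at 6 weeks (SE 0.49, adjusted p = 9.32e-06) and 1.63 at 8 weeks (SE 0.46, adjusted p = 0.00374). Without nAAC replicate 3 the 4-week value was 1.32 (adjusted p = 0.0125). Against nAAC it was lower in Rev-nAAC, with log2 differences of -1.70 at 6 weeks (SE 0.46, adjusted p = 0.00513) and -1.38 at 8 weeks (SE 0.46, adjusted p = 0.0184). The 8-week call was lost without nAAC replicate 4 (-1.24, adjusted p = 0.0503), Rev-nAAC replicate 2 (-1.25, 0.0535) or Rev-nAAC replicate 4 (-1.22, 0.0594). Against sham, Egr3 was higher in Rev-nAAC at 4 weeks (log2 1.87, SE 0.48, adjusted p = 0.00345), a call that missed the threshold with limma voom (1.02, 0.0530). At 6 weeks the difference was 1.14 (adjusted p = 0.101), called with limma voom (0.0221), with sex as a covariate (0.0443) and with only the compared groups (0.00340), and at 8 weeks it was 0.25 (0.706).

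Egr1 (chromosome 18, 34859823 to 34864984, plus strand) is a regulator of matrix and growth factor genes. Its group means followed this order at 4 and 8 weeks, with nAAC highest and sham lowest. At 6 weeks they did not, with 103.3 CPM in Rev-nAAC against 52.9 CPM in nAAC. In sham the libraries ranged from 14.5 to 55.5 CPM over the ages. The nAAC libraries of 4 weeks held 69.8, 18.7, 164.4, 17.4 and 15.2 CPM, so that replicates 1 and 3 were above every sham library and the other 3 were at the low end of sham. Those of 6 weeks held 33.3, 128.5, 26.5, 22.01 and 54.0 CPM and those of 8 weeks 26.7, 52.8, 29.5, 62.9 and 30.1 CPM. The log2 differences from sham were 1.05, 0.68 and 1.05 at 4, 6 and 8 weeks, with adjusted p of 0.128, 0.317 and 0.118. The 4-week difference was 0.13 without nAAC replicate 3 (0.868) and 0.13 with limma voom (0.861), and the 6-week difference was 0.04 without nAAC replicate 2 (0.961). The 4-week difference was called without sham replicate 1 (1.47, 0.0471) and without the 5 libraries named above (1.72, 0.0331), and the 8-week difference with limma voom (0.0403) and with only the compared groups (0.0225).

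Rev-nAAC at 6 weeks held the highest Egr1 group, with 71.0, 106, 73.2, 213 and 53.2 CPM against 31.0, 44.9, 45.6, 23.5 and 19.7 CPM in sham. The groups did not overlap, and Egr1 was 3.13-fold higher (log2 1.65, SE 0.56, adjusted p = 0.0369). The call was lost without Rev-nAAC replicate 4 (1.20, adjusted p = 0.123), without Rev-nAAC replicate 2 (1.64, 0.0597), without sham replicate 1 (1.63, 0.0733), 4 (1.55, 0.0840) or 5 (1.51, 0.0872), and with no filter (1.63, 0.0683). Against nAAC the 6-week difference of 0.97 had an adjusted p of 0.196, and it was 1.61 (0.0380) without nAAC replicate 2, 0.52 (0.5695) without Rev-nAAC replicate 4 and 0.58 (0.367) with limma voom. At 4 weeks the Rev-nAAC libraries held 21.3, 39.3, 91.0, 63.9 and 28.2 CPM. At 8 weeks they held 25.6, 19.4, 39.4, 14.6 and 21.7 CPM, and neither group was called against sham.

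**Figure D2:**
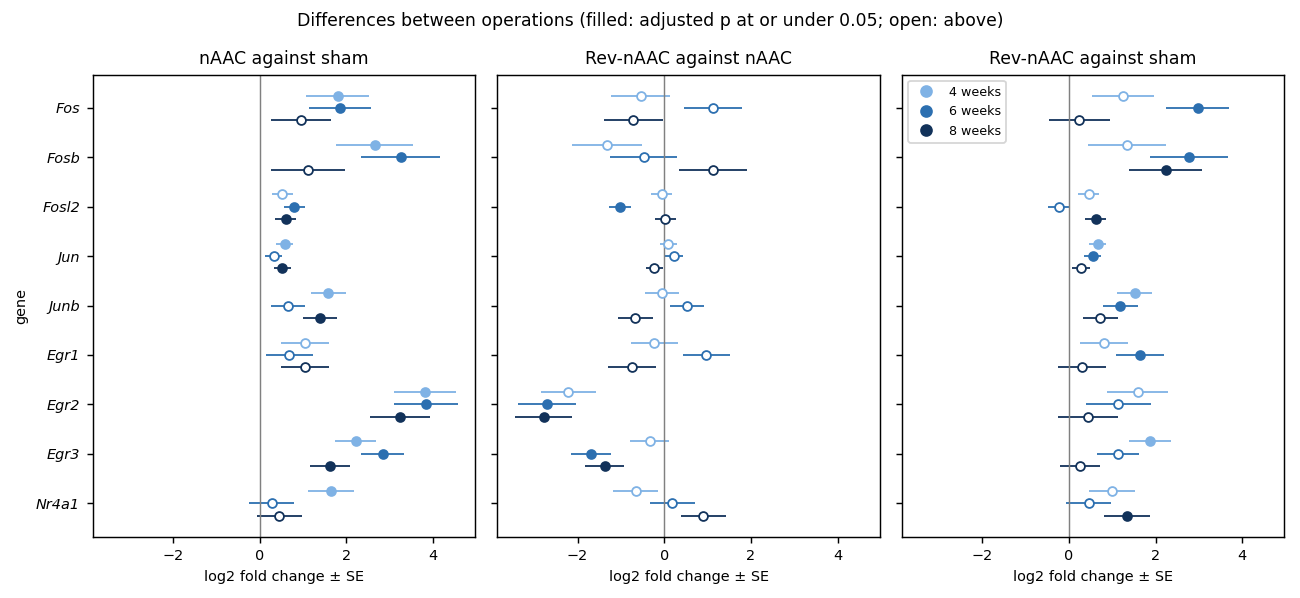
Log2 fold change of each tested member with its standard error, by comparison (panels) and age (shades), with filled points for an adjusted p at or under 0.05. Egr2 and Egr3 were filled in nAAC against sham at each age, with Egr2 at 3.81, 3.84 and 3.23, and on the lower side in Rev-nAAC against nAAC at 6 and 8 weeks.

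Among the FOS genes, Fos (chromosome 12, 85473890 to 85477273, plus strand), the best known AP-1 partner of JUN, varied widely between libraries of a group. Its sham libraries held 11.5, 4.82, 2.50, 1.32 and 2.12 CPM at 4 weeks, 3.53, 5.50, 7.13, 4.05 and 3.69 CPM at 6 weeks and 3.85, 7.09, 9.02, 5.16 and 9.26 CPM at 8 weeks. In nAAC the values were 17.2, 2.92, 48.5, 4.62 and 4.01 CPM at 4 weeks, 14.2, 26.9, 6.37, 3.77 and 34.6 CPM at 6 weeks and 11.1, 12.3, 11.3, 25.8 and 6.37 CPM at 8 weeks. High and low libraries stood side by side in nAAC, and the groups overlapped at each age. In Rev-nAAC they were 3.98, 8.85, 17.7, 17.1 and 5.47 CPM at 4 weeks. At 6 weeks they were 16.4, 17.6, 13.3, 114.5 and 25.6 CPM, each above all sham libraries of that age. At 8 weeks they were 14.5, 5.62, 12.6, 3.96 and 4.01 CPM, with replicates 1 and 3 above the sham range and the other 3 within it.

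Fos was higher in nAAC than in sham at 4 weeks (log2 1.80, SE 0.72, adjusted p = 0.0432) and 6 weeks (log2 1.85, SE 0.72, adjusted p = 0.0320), and at 8 weeks the difference was 0.96 (adjusted p = 0.266). The 4-week call was lost without nAAC replicate 3 (0.70, adjusted p = 0.463), without nAAC replicate 1 or sham replicate 2, 3, 4 or 5 (1.56 to 1.83, 0.0584 to 0.105), and without sham replicate 1 the value was 2.52 (0.0111). It was also lost with limma voom (0.81, 0.439), with only the compared groups (0.129), with nAAC replicate 1 counted as sham (1.19, 0.194), with sex as a covariate (0.0551) and with no filter (0.0684). The 6-week call was lost without nAAC replicate 2 or 5 or sham replicate 1, 4 or 5 (1.43 to 1.79, 0.0610 to 0.114), with sex as a covariate (0.0572) and with no filter (0.0560). Against sham, Fos in Rev-nAAC at 6 weeks was 7.83-fold higher (log2 2.97, SE 0.74, adjusted p = 0.00509), and without replicate 4, at 114.5 CPM, the log2 value was 1.93 (0.0391).

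Replicate 4 of Rev-nAAC at 6 weeks also held 4497 CPM of summed red cell markers, against 556 to 1561 CPM in the other 4 libraries of its group, and 20.7 CPM of neutrophil markers, against 4.54 to 17.3 CPM. Its heat shock sum of 1767 CPM was the lowest of the group, whose others held 1975 to 2419 CPM. The part of these in its member levels was not tested.

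Fosb (chromosome 7, 19302696 to 19310051, minus strand), a FOS relative with a truncated, long-lived protein form, was scarce in sham, at 0.123 to 1.42 CPM over 15 libraries. In nAAC the libraries held 1.62, 0.652, 11.8, 0.873 and 0.301 CPM at 4 weeks, 3.46, 7.29, 1.46, 0.442 and 9.56 CPM at 6 weeks and 0.530, 1.76, 1.94, 2.98 and 1.13 CPM at 8 weeks. A single library, replicate 3, was high at 4 weeks, and replicates 1, 2 and 5 were at 6 weeks. Fosb was 6.30-fold higher than in sham at 4 weeks (log2 2.66, SE 0.89, adjusted p = 0.0158) and 9.51-fold higher at 6 weeks (log2 3.25, SE 0.90, adjusted p = 0.00297), and at 8 weeks the difference was 1.11 (adjusted p = 0.290). The 4-week call was lost without replicate 3 (0.85, 0.457) and with limma voom (1.10, 0.338), while the 6-week call held without each library in turn.

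In Rev-nAAC the Fosb values were 0.355, 2.44, 1.38, 1.12 and 0.807 CPM at 4 weeks, 1.5, 0.752, 1.11, 11.3 and 1.31 CPM at 6 weeks and 2.03, 1.90, 2.46, 1.48 and 10.3 CPM at 8 weeks. All libraries of 6 and 8 weeks were above the sham libraries of their age, and a single library was far above the rest at each of these ages. Against sham the log2 difference was 2.77 at 6 weeks (SE 0.90, adjusted p = 0.0288) and 2.23 at 8 weeks (SE 0.84, adjusted p = 0.0359). Without that library it was 1.32 at 6 weeks (replicate 4, adjusted p = 0.281) and 1.35 at 8 weeks (replicate 5, 0.214). The 6-week call was also lost without sham replicate 1, 2, 3 or 5 (2.66 to 2.79, 0.0544 to 0.0650) and the 8-week call without sham replicate 1, 2 or 5 (1.96 to 2.16, 0.0712 to 0.0898). The 4-week difference of 1.34 (0.299) was called with only the compared groups in the fit (1.37, 0.0450) and was 0.84 (0.531) with nAAC replicate 1 of 4 weeks counted as sham. Limma voom ended the 6-week call (1.52, 0.181), and the lack of a filter ended both (0.0590 and 0.0696). At 8 weeks replicate 5 also had the highest heat shock sum of all libraries, 3294 CPM, against 1745 to 1908 CPM in the other 4, and the part of this was not tested.

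Fosl2 (chromosome 5, 32135801 to 32157842, plus strand), the FOS-related antigen tied to fibrosis in mouse models, had the highest mean level per length of the FOS genes in sham, at 3.53, 3.66 and 4.94 CPM per kilobase at 4, 6 and 8 weeks against 1.89, 2.03 and 2.92 for Fos. In nAAC at 4 and 6 weeks and in Rev-nAAC at 6 weeks the mean of Fos was the higher one, at 6.57, 7.30 and 15.9 CPM per kilobase against 5.06, 6.36 and 3.13 for Fosl2. High libraries raised these means of Fos, which in CPM were 15.45, 17.18 and 37.48 against medians of 4.62, 14.2 and 17.6. The sham libraries held 27.1, 35.4, 41.4, 30.6 and 36.05 CPM of Fosl2 at 4 weeks, 34.9, 29.8, 21.6, 43.4 and 47.4 CPM at 6 weeks and 39.4, 55.6, 38.7, 58.7 and 46.7 CPM at 8 weeks. The nAAC libraries held 26.0, 56.7, 81.3, 46.6 and 34.1 CPM at 4 weeks, 71.99, 84.7, 48.6, 34.0 and 68.7 CPM at 6 weeks and 68.0, 73.9, 60.0, 97.9 and 61.6 CPM at 8 weeks. At 8 weeks each nAAC library was above each sham library, and at the other ages the groups overlapped. Rev-nAAC held 31.6, 65.9, 56.5, 29.9 and 50.1 CPM at 4 weeks. It held 25.9, 26.1, 31.0, 33.1 and 35.4 CPM at 6 weeks, within the sham range, and 97.4, 68.8, 74.4, 65.8 and 59.9 CPM at 8 weeks, above all sham libraries of that age and overlapping nAAC.

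The log2 difference of Fosl2 between nAAC and sham was 0.52 at 4 weeks (adjusted p = 0.0877), 0.80 at 6 weeks (SE 0.25, adjusted p = 0.00705) and 0.60 at 8 weeks (SE 0.24, adjusted p = 0.0425). Without nAAC replicate 3 the 4-week difference was 0.26 (0.435). It was called without nAAC replicate 1 (0.68, 0.0221) or 5 (0.65, 0.0434), with replicate 1 counted as sham (0.74, 0.0105) and without the 5 libraries named above (0.80, 0.0152). In Rev-nAAC, Fosl2 was 2.03-fold lower than in nAAC at 6 weeks (log2 -1.02, SE 0.25, adjusted p = 0.00193), a call that held without each library, and the 8-week difference was 0.02 (95% interval -0.47 to 0.51). Against sham it was higher at 8 weeks (log2 0.62, SE 0.24, adjusted p = 0.0464). The 2 calls at 8 weeks against sham were each lost in part of the fits that left out a library. That of nAAC was lost without sham replicate 1, 3 or 5 or nAAC replicate 1, 2 or 4 (0.46 to 0.62, adjusted p 0.0523 to 0.143). That of Rev-nAAC was lost without sham replicate 1, 3 or 5 or Rev-nAAC replicate 1, 2, 3 or 4 (0.48 to 0.64, 0.0558 to 0.151), with RLE scaling (0.0516) and with sex as a covariate (0.0567). No filter ended both (0.0899 and 0.105).

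Fosl1 (chromosome 19, 5447547 to 5455946, plus strand), the FOS-related antigen best known from proliferating and invasive cells, was near the floor of detection. Its counts ran from 0 to 17 per library, with 6 libraries at 0, and no level in any library exceeded 0.461 CPM. Its gene overlaps Ccdc85b on the opposite strand, and the strand setting of the counting is not given in the sources used here. In a fit without the filter its adjusted p was 0.239 or more in each of the 9 comparisons of operations. Differences in Fosl1 were not detectable at this depth.

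Of the JUN genes, Jun (chromosome 4, 95049034 to 95052222, minus strand), a JUN protein that can also pair with itself, was the most abundant member per length in sham. In sham the libraries of 4, 6 and 8 weeks ranged over 44.4 to 62.8, 39.1 to 73.2 and 41.6 to 77.2 CPM. In nAAC they held 64.7, 69.3, 106.9, 76.6 and 71.3 CPM at 4 weeks, each above sham, 77.7, 70.2, 63.6, 45.7 and 88.9 CPM at 6 weeks and 68.4, 97.2, 87.1, 95.9 and 72.2 CPM at 8 weeks. In Rev-nAAC they held 63.5, 85.5, 103.4, 76.1 and 84.6 CPM at 4 weeks, each above sham, 62.6, 51.6, 78.1, 117.9 and 93.7 CPM at 6 weeks and 74.2, 66.8, 96.9, 60.7 and 58.2 CPM at 8 weeks. The shifts were small, of 1.43- to 1.59-fold where called. Jun overlaps the antisense gene Junos on the opposite strand, and without a stated strand setting their reads cannot be told apart.

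Jun was higher in nAAC than in sham at 4 weeks (log2 0.58, SE 0.20, adjusted p = 0.0176) and 8 weeks (log2 0.52, SE 0.20, adjusted p = 0.0290), and at 6 weeks the difference was 0.33 (adjusted p = 0.174). It was higher in Rev-nAAC than in sham at 4 weeks (log2 0.67, SE 0.20, adjusted p = 0.0108) and 6 weeks (log2 0.55, SE 0.20, adjusted p = 0.0489). The call in Rev-nAAC at 4 weeks held without each library. That in nAAC at 4 weeks was lost without nAAC replicate 3 (0.44, 0.0927), and that at 8 weeks without sham replicate 1, 4 or 5 or nAAC replicate 2 or 4 (0.42 to 0.50, 0.0534 to 0.0953), with sex as a covariate (0.0512) and with no filter (0.0671). That in Rev-nAAC at 6 weeks was lost without any of sham replicates 1 to 4 or Rev-nAAC replicates 3 to 5 (0.37 to 0.60, 0.0544 to 0.176), with limma voom (0.0720), with no filter (0.106), with only the compared groups (0.126) and with sex as a covariate (0.0800). The 8-week difference in Rev-nAAC was 0.28 (adjusted p = 0.281). It was called with limma voom (0.44, 0.0448) and was 0.14 (0.628) without Rev-nAAC replicate 3.

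Junb (chromosome 8, 84974484 to 84978718, minus strand), which can antagonise Jun at some promoters, was higher than in sham after both operations at 4 weeks. Its sham libraries held 19.4, 11.6, 13.0, 10.1 and 11.9 CPM at 4 weeks, 15.4, 26.2, 26.7, 18.4 and 18.2 CPM at 6 weeks and 13.1, 10.7, 20.6, 16.4 and 15.4 CPM at 8 weeks. The nAAC libraries held 25.9, 17.9, 95.9, 18.4 and 40.1 CPM at 4 weeks, 31.1, 52.3, 21.9, 18.6 and 41.5 CPM at 6 weeks and 37.6, 40.6, 32.2, 63.5 and 25.5 CPM at 8 weeks. Only at 8 weeks were the nAAC libraries clear of sham. Rev-nAAC held 24.9, 58.6, 36.7, 43.4 and 26.3 CPM at 4 weeks, 26.3, 31.8, 28.8, 122.7 and 29.9 CPM at 6 weeks and 28.8, 21.2, 31.9, 22.02 and 21.7 CPM at 8 weeks. Those of 4 and 8 weeks were all above sham, and at 6 weeks 4 of 5 libraries lay close to each other and replicate 4 far above them. The gene overlaps Prdx2 on the opposite strand, so part of its reads may be shared.

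Junb was 2.998-fold higher in nAAC than in sham at 4 weeks (log2 1.58, SE 0.41, adjusted p = 0.00198) and 2.62-fold at 8 weeks (log2 1.39, SE 0.40, adjusted p = 0.00453). Without nAAC replicate 3 the 4-week value was 0.95 (adjusted p = 0.0439). At 6 weeks the difference was 0.66 (0.174), called with limma voom (0.0210), and 0.43 (0.418) without nAAC replicate 2. In Rev-nAAC, Junb was 2.87-fold higher than in sham at 4 weeks (log2 1.52, SE 0.41, adjusted p = 0.00496), a call that held without each library, and 2.28-fold at 6 weeks (log2 1.19, SE 0.40, adjusted p = 0.0354). The 6-week call was lost without Rev-nAAC replicate 4 (0.48, 0.350), without sham replicate 1, 4 or 5 (1.10 to 1.15, 0.0725 to 0.0884) and with limma voom (0.0861), no filter (0.0693), only the compared groups (0.120) or sex as a covariate (0.0618). At 8 weeks the difference was 0.72 (0.161), called with limma voom (0.0169) and with only the compared groups (0.00666). Against nAAC the 8-week difference of -0.67 (0.198) was called with only the compared groups (0.0418) and was -0.44 (0.4599) without nAAC replicate 4.

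Nr4a1 (chromosome 15, 101254269 to 101274795, plus strand) is the orphan nuclear receptor, known to be induced in heart by adrenergic signals. It had its highest group mean in Rev-nAAC at 8 weeks. Its sham libraries held 18.04, 17.8, 32.2, 8.77 and 14.03 CPM at 4 weeks, 36.9, 39.3, 22.6, 66.3 and 68.1 CPM at 6 weeks and 21.1, 35.99, 24.2, 80.2 and 42.4 CPM at 8 weeks. The nAAC libraries held 41.6, 41.1, 136.5, 40.7 and 24.6 CPM at 4 weeks, 72.8, 109.9, 14.8, 18.2 and 65.9 CPM at 6 weeks and 38.7, 58.4, 57.6, 71.7 and 52.1 CPM at 8 weeks. At 6 weeks replicates 3 and 4 of nAAC were below all sham libraries and replicates 1 and 2 above them. Rev-nAAC held 15.1, 47.7, 52.3, 38.0 and 27.3 CPM at 4 weeks, 28.1, 37.7, 41.0, 170.5 and 42.5 CPM at 6 weeks and 142.1, 155.9, 59.6, 105.3 and 54.8 CPM at 8 weeks. In the last group 3 libraries exceeded every sham and nAAC library of their age and the other 2 lay within the sham range.

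Nr4a1 was 3.13-fold higher in nAAC than in sham at 4 weeks (log2 1.65, SE 0.54, adjusted p = 0.0134), and without nAAC replicate 3 the call was lost (1.03, adjusted p = 0.130). At 6 and 8 weeks the differences were 0.27 (0.693) and 0.45 (0.505). In Rev-nAAC it was 2.54-fold higher than in sham at 8 weeks (log2 1.34, SE 0.53, adjusted p = 0.0437). That call was lost without sham replicate 1, 2, 3 or 5 or Rev-nAAC replicate 1, 2 or 4 (1.14 to 1.35, 0.0654 to 0.1098), with sex as a covariate (0.0850), with no filter (0.0809) and without the 5 libraries named above (0.0675). Against nAAC the 8-week difference of 0.89 (0.190) was called with only the compared groups in the fit (0.0408). It was 0.69 (0.372) without Rev-nAAC replicate 2 and 0.74 (0.331) without Rev-nAAC replicate 1.

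Between ages, no tested member was called in sham or nAAC, from 4 to 6 weeks or from 6 to 8 weeks. At an unadjusted p of 0.05 or less this was 1 of 9 in sham from 4 to 6 weeks and 0 of 9 in the other 3 steps. Of all genes, 16.9% and 1.83% were called in sham at these steps, and 1.22% and 0% in nAAC. In sham from 4 to 6 weeks the difference of Nr4a1 was 1.36 (adjusted p = 0.0752), and it was called with DESeq2 (1.38, adjusted p = 0.0386), limma voom (1.39, 0.0106), only the compared groups (1.36, 0.0339) and without sham replicate 3 of 4 weeks (1.67, 0.0477). Junb, at 0.67 (0.272), was called there with limma voom (0.77, 0.0325) and only the compared groups (0.67, 0.0312), and Egr3, at 0.54 (0.553), in nAAC from 4 to 6 weeks with limma voom (1.19, 0.0200). In Rev-nAAC none was called from 4 to 6 weeks (0.427% of all genes, and 2 of 9 members at an unadjusted p of 0.05 or less), and 3 were from 6 to 8 weeks. Fosl2 rose (log2 1.27, SE 0.25, adjusted p = 0.00167), where 4.45% of all genes were called higher, and its libraries of 8 weeks were all above those of 6 weeks, as in 2.29% of all genes. Fos fell (log2 -2.20, SE 0.70, adjusted p = 0.0448) and Egr1 fell (log2 -2.10, SE 0.57, adjusted p = 0.0175), where 3.96% were called lower, and the Egr1 libraries of 8 weeks were all below those of 6 weeks, as in 1.81% of all genes.

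The rise of Fosl2 held without each library. The fall of Fos was lost without Rev-nAAC replicate 4 of 6 weeks (-1.16, adjusted p = 0.303), without replicate 2, 3, 4 or 5 of 8 weeks (-2.41 to -2.02, 0.0606 to 0.144), with limma voom (-1.16, 0.130), with no filter (0.0796), with only the compared groups (0.119), with sex as a covariate (0.0542) and without the 5 libraries named above (0.112). That of Egr1 was lost without replicate 4 of 6 weeks (-1.65, 0.0652), without replicate 2 or 4 of 8 weeks (-2.02 and -1.96, 0.0513 and 0.0779) and without the 5 libraries (0.0534). Whether an operation's effect differed between ages was tested as an interaction, and none of the 9 members passed in any of 4 such tests, where 17.3%, 0.162%, 3.19% and 5.59% of all genes did. At an unadjusted p of 0.05 or less there were 2 in Rev-nAAC against sham at 8 minus 6 weeks and 0 in the other 3 tests. There Fos, at log2 -2.72 (adjusted p = 0.0986), was called with DESeq2 (-2.73, 0.0486), and Fosl2, at 0.84 (0.148), with limma voom (0.90, 0.0396). Egr2, at 0.03 (0.987), passed in nAAC against sham at 6 minus 4 weeks without nAAC replicate 3 of 4 weeks (2.09, 0.0356).

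Within groups, the members tended to rise and fall together from library to library, with exceptions given below. After each group's mean was subtracted from log2(CPM + 0.5), all 36 pairs of the 9 tested members had a positive Pearson r over the 45 libraries, from 0.210 to 0.879 with a median of 0.544. Of these, 35 had an adjusted p at or under 0.05 in a permutation test with 100000 resamples, adjusted over the 36 pairs. Pairs of other genes were not counted in this way, so the share cannot be said to be particular to the members. Fos and Egr1 gave r = 0.879 and Spearman's rho = 0.837, with adjusted p of 3.27e-05 and 3e-05, from 1e-05, the smallest p that the permutations can give, and r = 0.842 without the 2 libraries farthest from the median of Fos. Egr2 and Egr3 gave r = 0.856 and rho = 0.759, and r = 0.769 without the 2 farthest. Fos and Junb gave r = 0.819 and rho = 0.764, and r = 0.735 without the 2 farthest, with the same adjusted p as the pairs above. Fosl2 and Egr1 were the weakest pair, at r = 0.210 and rho = 0.125 (adjusted p = 0.167 and 0.412). By rho, Fosl2 with Junb (0.278, adjusted p = 0.0673) and Jun with Egr1 (0.297, adjusted p = 0.0520) missed the threshold too. Fos and Fosl2 gave r = 0.320, and r = 0.198 without the 2 farthest. Group means were estimated from the same libraries, so the 45 points are not fully independent. The resamples also moved values between groups, whose spreads differed, so the p-values are approximate. For Egr2 at 4 weeks, the SD of CPM was 9.73% of the mean in sham and 170% in nAAC.

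**Figure D3:**
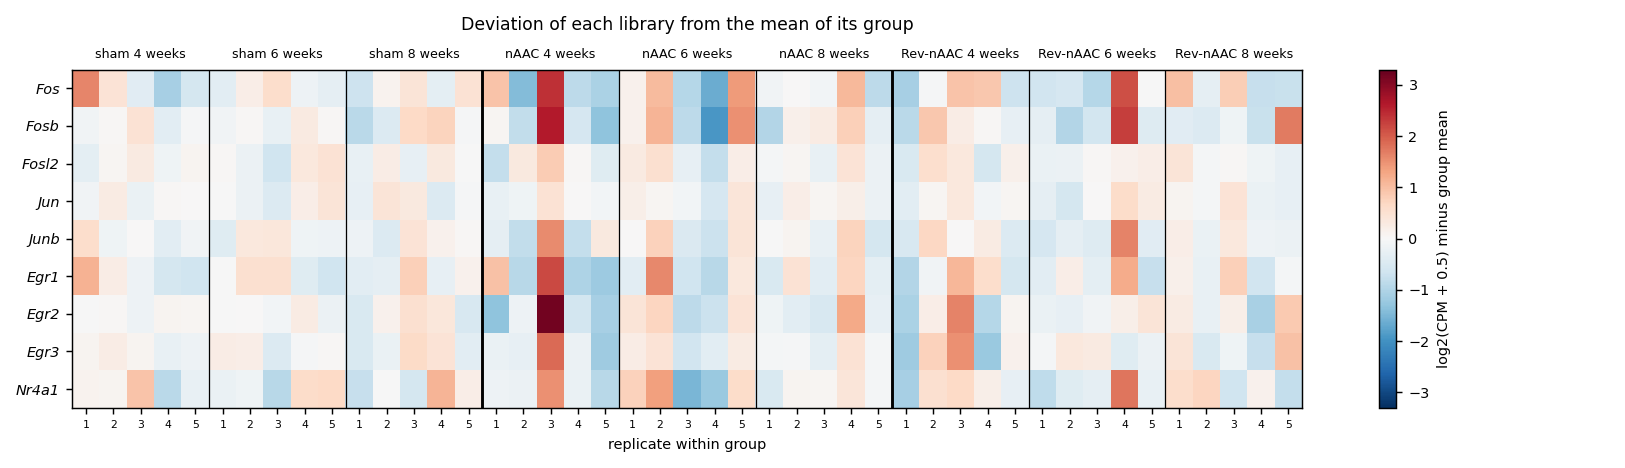
Difference of log2(CPM + 0.5) from the group mean for each tested member (rows) in each library (columns, replicates 1 to 5 of each group), with red above and blue below the mean. Replicate 3 of nAAC at 4 weeks was the highest of its group in all 9 members, and replicate 4 of Rev-nAAC at 6 weeks in 6.

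Some libraries were the highest of their group for many members at once. Replicate 3 of nAAC at 4 weeks was the highest of its group for all 9 tested members and replicate 4 of nAAC at 8 weeks for 8. Replicate 2 of nAAC at 6 weeks, replicate 3 of Rev-nAAC at 4 weeks and replicate 4 of Rev-nAAC at 6 weeks were each the highest for 6, and replicate 1 of Rev-nAAC at 4 weeks was the lowest for 7. In the sham groups no library was the highest for more than 4. Opposite moves were seen too. Replicate 3 of sham at 6 weeks was the highest for Fos, Junb and Egr1 and the lowest for 5 other members. Replicate 5 of Rev-nAAC at 8 weeks was the highest for 3 and the lowest for 3. Among nAAC libraries of 4 weeks, replicate 3 had the lowest cardiomyocyte sum, 25800 CPM against 32210 to 38140 CPM, and the highest fibroblast sum, 2448 CPM against 1493 to 2215 CPM. Replicate 4 of nAAC at 8 weeks likewise had the lowest cardiomyocyte sum of its group, 25780 CPM against 29080 to 33530 CPM, and replicate 3 of Rev-nAAC at 4 weeks that of its own, 26480 CPM against 27750 to 41260 CPM. Replicate 4 of Rev-nAAC at 6 weeks had instead the highest of its group, 47550 CPM against 37600 to 41780 CPM. The part of cell content in these levels was not tested.

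**Figure D4:**
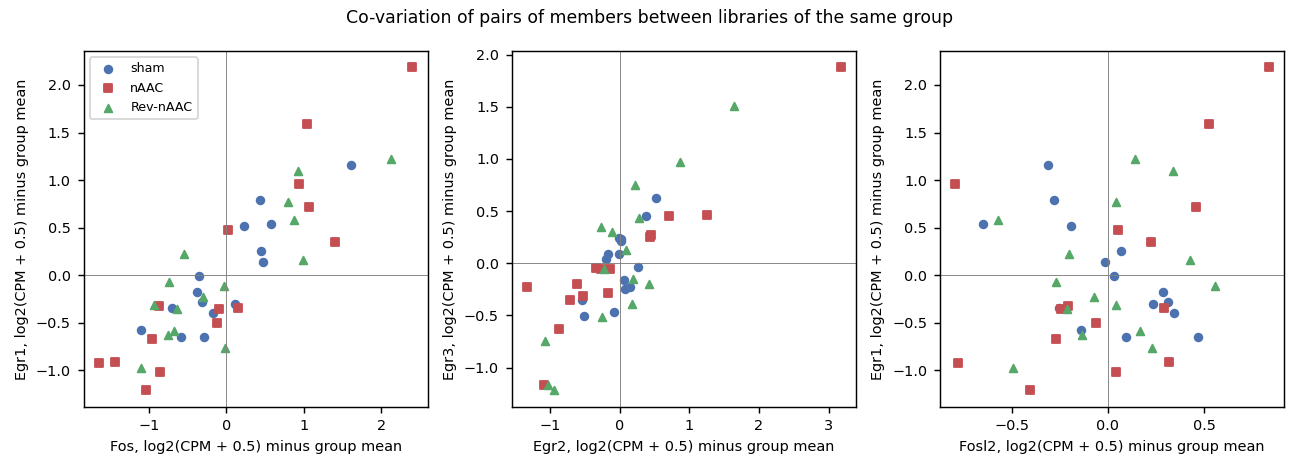
Deviation from the group mean in log2(CPM + 0.5) for 3 pairs of members, a point for each of 45 libraries, with circles for sham, squares for nAAC and triangles for Rev-nAAC. Fos and Egr1 (r = 0.879) and Egr2 and Egr3 (r = 0.856) lie along a diagonal, and Fosl2 and Egr1 (r = 0.210) do not.

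The genes whose levels followed a member most closely were ranked by the same centred Pearson r over 45 libraries, among 12750 genes. For Fos they were Ier2 (r = 0.787), an immediate early nuclear protein, Dusp1 (0.783), a phosphatase that switches off MAP kinases, Btg2 (0.720), an antiproliferative factor, and Zfp36 (0.717), which speeds the decay of mRNAs with AU-rich elements. For Fosl2 they were Slc25a25 (0.855), a mitochondrial carrier of ATP-Mg, Apold1 (0.811), an endothelial early response gene, Adamts1 (0.790), a matrix protease, and Sik1 (0.763), a salt-inducible kinase. Those nearest Nr4a1 were Apold1 (0.783), Sik1 (0.777), Btg2 (0.773) and Adamts1 (0.736). The libraries, their depth and their cell content are common to all these values. Fosl1 was not ranked, since it failed the filter.

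The members' pathway was followed in 6 further lists. Beside the counts below, 19.5%, 24.5% and 23.8% of all genes were called higher and 21.2%, 23.8% and 23.5% lower in nAAC than in sham at 4, 6 and 8 weeks. For Rev-nAAC against sham these shares were 12.2%, 8.66% and 18.3% higher and 13.1%, 8.39% and 17.3% lower, and against nAAC 0.79%, 13.8% and 16.9% higher and 1.76%, 12.1% and 16% lower. No list was tested as a set. Some genes, among them Maff, Atf3 and Zfp36, stand in more than 1 list, so the counts of the lists are not independent.

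Of 25 other immediate early genes 24 were tested, and in nAAC against sham 16 were higher at 4 weeks, 14 at 6 weeks and 16 at 8 weeks, with none lower. These are 66.7%, 58.3% and 66.7% of the 24, and their median log2 difference was 1.12, 0.80 and 0.84. Between Rev-nAAC and sham 15, 9 and 11 were higher and none lower, with medians of 0.99, 0.63 and 0.53. In Rev-nAAC against nAAC none was called at 4 weeks, 2 were higher and 4 lower at 6 weeks, and 1 was higher and 6 lower at 8 weeks. Those with the smallest p in nAAC against sham at 4 weeks were Maff, a small MAF protein (log2 2.13, SE 0.29, adjusted p = 3.03e-07), Ccn1, a matricellular protein (log2 1.65, SE 0.26, adjusted p = 4.28e-06), and Arc, a neuronal activity gene (log2 2.28, SE 0.38, adjusted p = 6.09e-06). At 6 weeks they were Myc, the growth-promoting factor (log2 2.07, SE 0.29, adjusted p = 1.73e-07), Gadd45g, a stress sensor (log2 1.55, SE 0.25, adjusted p = 2.23e-06), and Ccn1 (log2 1.62, SE 0.26, adjusted p = 3.24e-06). In Rev-nAAC against sham at 8 weeks they were Gadd45b (log2 1.51, SE 0.29, adjusted p = 6.17e-05), Nr4a2, a relative of Nr4a1 (log2 1.82, SE 0.38, adjusted p = 2.04e-04), and Myc (log2 1.24, SE 0.28, adjusted p = 5.77e-04).

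Of 14 other AP-1 and partner factors, all tested, 8, 7 and 6 were higher and 2, 2 and 1 lower in nAAC than in sham at 4, 6 and 8 weeks. For Rev-nAAC against sham 7, 2 and 6 were higher and 1, 0 and 1 lower. The shares called higher were 57.1% in nAAC at 4 weeks, 42.9% in both operations at 8 weeks and 14.3% in Rev-nAAC at 6 weeks. Mafk, a small MAF protein that lacks an activation domain, was higher in nAAC at 4 weeks (log2 1.35, SE 0.17, adjusted p = 5.57e-08) and at 6 weeks (log2 1.21, SE 0.17, adjusted p = 1.94e-07), and in Rev-nAAC at 8 weeks (log2 1.02, SE 0.17, adjusted p = 9.16e-06). Cebpb, a bZIP factor of inflammation, was higher in nAAC at 4 weeks (log2 1.40, SE 0.26, adjusted p = 4.25e-05), and at 6 weeks Maff, which both lists hold, was higher (log2 1.59, SE 0.29, adjusted p = 1.96e-05) and Atf2, a CRE-binding factor, lower (log2 -0.40, SE 0.08, adjusted p = 5.84e-05). In Rev-nAAC at 8 weeks Atf3, a stress-induced factor, was higher (log2 2.05, SE 0.46, adjusted p = 6.34e-04), as was Mafg (log2 0.35, SE 0.09, adjusted p = 0.00220).

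The upstream kinases and the SRF, TCF and CREB factors, 21 genes, held calls in both directions. In nAAC against sham 0, 7 and 4 were higher and 8, 8 and 6 lower at 4, 6 and 8 weeks, with medians of -0.17, -0.06 and -0.0031. The same comparison for Rev-nAAC gave 0, 2 and 2 genes higher and 4, 4 and 6 lower. In nAAC these are 0%, 33.3% and 19.0% of the list higher and 38.1%, 38.1% and 28.6% lower, so that at 8 weeks neither share was far from that of all genes. Mapk14, the p38 kinase, was lower in nAAC at 4 weeks (log2 -0.62, SE 0.08, adjusted p = 2.00e-07) and at 6 weeks (log2 -0.61, SE 0.08, adjusted p = 1.52e-07), and in Rev-nAAC at 8 weeks (log2 -0.56, SE 0.08, adjusted p = 2.01e-06). The JUN kinases Mapk8 (log2 -0.45, SE 0.08, adjusted p = 9.75e-06) and Mapk9 (log2 -0.28, SE 0.06, adjusted p = 1.48e-04) were also lower in nAAC at 4 weeks. At 6 weeks Mapk9 was lower as well (log2 -0.44, SE 0.06, adjusted p = 6.91e-08). In Rev-nAAC at 8 weeks Mapk9 (log2 -0.29, SE 0.06, adjusted p = 1.58e-04) and Map2k1, the kinase of ERK (log2 -0.29, SE 0.06, adjusted p = 2.02e-04), were lower.

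Feedback inhibitors, 17 genes, were higher in nAAC than in sham for 3, 7 and 8 genes and lower for 3, 1 and 1 at 4, 6 and 8 weeks. In Rev-nAAC against sham 3, 5 and 3 were higher and 1, 1 and 2 lower. The share called higher in nAAC was 17.6% at 4 weeks, near that of all genes, and 41.2% and 47.1% at 6 and 8 weeks. In Rev-nAAC it was 17.6%, 29.4% and 17.6%, near that of all genes at 8 weeks. The same 3 genes had the smallest p in the 3 comparisons named. Dusp4, a nuclear phosphatase of MAP kinases, was higher in nAAC at 4 weeks (log2 3.39, SE 0.39, adjusted p = 1.08e-08) and at 6 weeks (log2 2.34, SE 0.37, adjusted p = 2.46e-06), and in Rev-nAAC at 8 weeks (log2 2.29, SE 0.37, adjusted p = 8.83e-06). Spry1, an inhibitor of receptor tyrosine kinase signalling, was higher in nAAC at 4 weeks (log2 1.05, SE 0.13, adjusted p = 2.58e-08) and 6 weeks (log2 1.15, SE 0.13, adjusted p = 2.17e-09) and in Rev-nAAC at 8 weeks (log2 0.78, SE 0.13, adjusted p = 7.83e-06). Dusp10, a phosphatase of p38 and JNK, was lower in nAAC at 4 weeks (log2 -0.87, SE 0.19, adjusted p = 3.52e-04) and 6 weeks (log2 -1.14, SE 0.19, adjusted p = 3.96e-06) and in Rev-nAAC at 8 weeks (log2 -0.89, SE 0.19, adjusted p = 3.00e-04).

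Of 18 known AP-1 and EGR target genes 17 were tested. In nAAC against sham 9, 10 and 10 were higher and 2, 2 and 1 lower, with medians of 0.67, 1.27 and 0.84, and the shares higher were 52.9%, 58.8% and 58.8%. In Rev-nAAC against sham 8, 0 and 3 were higher and 0, 0 and 4 lower at 4, 6 and 8 weeks, with medians of 0.83, 0.10 and -0.19. The 8-week shares of 17.6% higher and 23.5% lower lay near those of all genes, 18.3% and 17.3%. Against nAAC, 2 were higher and 3 lower at 4 weeks, and 0 higher and 8 and 13 lower at 6 and 8 weeks, or 47.1% and 76.5%. Whether the list differed between ages was not tested. In nAAC, Hbegf, an EGF receptor ligand, was higher at 4 weeks (log2 1.48, SE 0.22, adjusted p = 1.41e-06), as was Sphk1, a sphingosine kinase (log2 2.22, SE 0.34, adjusted p = 1.94e-06). At 6 weeks Cd44, the hyaluronan receptor (log2 1.80, SE 0.16, adjusted p = 2.10e-11), Sphk1 (log2 2.38, SE 0.35, adjusted p = 4.27e-07) and Hbegf (log2 1.53, SE 0.22, adjusted p = 4.32e-07) were higher. In Rev-nAAC at 8 weeks the matrix protease Mmp14 was higher than in sham (log2 1.21, SE 0.23, adjusted p = 5.62e-05), while Ccl2, a monocyte chemokine (log2 -2.60, SE 0.49, adjusted p = 6.47e-05), and Timp1, a protease inhibitor (log2 -2.26, SE 0.47, adjusted p = 2.40e-04), were lower. The summed fibroblast markers also differed between these groups, as given above, and their part in these values was not tested.

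The 9 heat shock genes, a response that can be induced apart from growth signals, were higher in nAAC than in sham for 4, 5 and 3 genes and in Rev-nAAC for 3, 5 and 1, with 1 lower in Rev-nAAC at 8 weeks. The shares higher were 44.4%, 55.6% and 33.3% in nAAC and 33.3%, 55.6% and 11.1% in Rev-nAAC. In nAAC at 4 weeks the smallest p were those of Bag3 (log2 0.62, SE 0.10, adjusted p = 2.00e-06), Hspb1 (log2 0.96, SE 0.23, adjusted p = 0.00103) and Hspa1a (log2 2.53, SE 0.80, adjusted p = 0.0108). At 6 weeks they were those of Hsp90aa1 (log2 1.08, SE 0.21, adjusted p = 4.99e-05), Hspb1 (log2 1.12, SE 0.23, adjusted p = 1.28e-04) and Hspa8 (log2 0.53, SE 0.14, adjusted p = 0.00166). In Rev-nAAC at 8 weeks Dnajb1 was lower (log2 -0.81, SE 0.23, adjusted p = 0.00533) and Bag3 higher (log2 0.27, SE 0.10, adjusted p = 0.0227), and Hsph1 gave -0.48 (adjusted p = 0.186). The summed level of the list was 1226 to 2092 CPM in sham, 1729 to 3157 CPM in nAAC and 1742 to 3294 CPM in Rev-nAAC, and its part in the member results was not tested.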

How the data were processed

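Left ventricle libraries of total RNA were read as a table of raw read counts per gene that the authors deposited. Per the submitters' processing notes, the tools were HTSeq 0.11.2, HISAT2 2.1.0 and fastp 0.20.1, and the genome was GRCm38/mm10. The annotation, strand setting and treatment of shared reads are not given in the sources used here.

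From the deposited counts, all 45 libraries in 9 groups of 5 were fitted together with edgeR 4.0.16 (robust quasi-likelihood test, TMM scaling, R 4.3.3). The filter on low counts (a minimum of 10 in enough libraries and a total of 15) kept 15444 of 27007 genes, over which p-values were adjusted by Benjamini and Hochberg, with a threshold of 0.05. CPM use TMM library sizes, and the pseudocount of log2 values was 0.5. The pipeline was tested on simulated data with 200 changed genes. Totals were 31586082 to 35965976 counts. Counting error alone does not limit the members other than Fosl1, Fosb and Egr2, whose lowest counts were 0, 4 and 19.

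Alternatives were DESeq2 1.42.0, limma 3.58.1 voom with quality weights, RLE scaling, no filter, only the compared groups, a replicate block, sex as a covariate, nAAC 4 weeks replicate 1 as sham, and leaving out each library. Leaving out 5 libraries together was added after the data were seen. Correlations used Python 3.11.15 with scipy 1.17.1. All members are named, and of each list the 3 genes with the smallest p at 4 and 6 weeks (nAAC against sham) and at 8 weeks (Rev-nAAC against sham), except 2 that are not reported here. For Fos, Fosl2 and Nr4a1 the 4 genes with the highest correlation are named. Members and lists were chosen with earlier results of these data known.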

Additional observations from a re-analysis of the deposited data

Results flagged for a closer look

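Within groups of 5, 16 of 90 combinations of member and group held a library whose gap to its nearest neighbour exceeded 0.71 of the group's range. Chance marks about 1 in 20 groups, or 4.5 of 90, when values are normally distributed. These CPM are skewed, and 15 of the 16 libraries were the highest of their group, so that figure is no measure of chance here. On log2(CPM + 0.5) the same limit was passed in 8 combinations, 7 of them by the highest library. The libraries of a combination are shared between members, so these are not independent. Their causes were not tested.

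Replicate 3 of nAAC at 4 weeks stood above its group in 6 members. It held 60.8 CPM of Egr2 against 2.22 to 5.59 CPM in the other 4 libraries, and 29.0 CPM of Egr3 against 3.08 to 6.47 CPM. Fosb was at 11.8 CPM against 0.301 to 1.62 CPM, and Jun at 106.9 CPM against 64.7 to 76.6 CPM. Junb was at 95.9 CPM against 17.9 to 40.1 CPM, and Nr4a1 at 136.5 CPM against 24.6 to 41.6 CPM.

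Replicate 4 of Rev-nAAC at 6 weeks stood above its group in 4 members. Fos was at 114.5 CPM against 13.3 to 25.6 CPM, and Fosb at 11.35 CPM against 0.752 to 1.5 CPM. Junb was at 122.7 CPM against 26.3 to 31.8 CPM, and Nr4a1 at 170.5 CPM against 28.1 to 42.5 CPM.

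Replicate 4 of nAAC at 8 weeks held 30.35 CPM of Egr2 against 8.45 to 11.2 CPM, and 14.7 CPM of Egr3 against 8.37 to 10.2 CPM. Replicate 3 of Rev-nAAC at 4 weeks held 8.64 CPM of Egr2 against 0.927 to 2.90 CPM. Replicate 5 of Rev-nAAC at 8 weeks held 10.3 CPM of Fosb against 1.48 to 2.46 CPM. Fosl1, near the floor of detection, was at 0.256 CPM in replicate 4 of Rev-nAAC at 8 weeks against 0.0589 to 0.0848 CPM, and was lowest, at 0.0271 CPM, in replicate 1 of nAAC at 4 weeks against 0.1003 to 0.124 CPM.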

How the results depend on the processing

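Over 84 results for single members in comparisons of operations and called age steps, 1503 values were computed under other settings. Of these, 1327 kept direction and side of the threshold, 115 lost a call, 30 gained one and 31 changed sign, none of them with either value past the threshold. The causes were not tested.

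Counts of members called moved by over 1.5 times in the following fits. In nAAC against sham at 8 weeks (5) there were 3 without the filter. In Rev-nAAC against nAAC at 4 weeks (0) there was 1 with DESeq2, with nAAC replicate 1 as sham and without the 5 libraries, and at 8 weeks (2) there were 4 with only the compared groups. In Rev-nAAC against sham at 6 weeks (5) there were 3 with limma voom and 1 without the filter, and at 8 weeks (3) there were 5 with limma voom, 0 without the filter and 1 with sex as a covariate. Age steps (3) gave 5 with limma voom and 1 without the 5 libraries. Interactions (0) gave 1 with DESeq2 and 1 with limma voom.

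In each comparison of operations at most 2 of 5 same-numbered pairs of libraries correlated above 0.1, with r from -0.205 to 0.311. Such correlations cannot settle whether replicate numbers pair the libraries. With the replicate block the count in Rev-nAAC against sham at 6 weeks was 3, with Jun (adjusted p = 0.0559) and Junb (0.0511) lost. The block also took Fos out of the calls at 4 weeks in nAAC against sham (1.57, 0.0965), likewise in the Rev-nAAC step from 6 to 8 weeks (0.0627), and Nr4a1 in Rev-nAAC against nAAC at 6 weeks changed sign (-0.0035).

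Leaving out single libraries gave 3 to 8, 4 to 5 and 3 to 5 members in nAAC against sham at 4, 6 and 8 weeks, 0 to 1, 3 to 4 and 1 to 2 in Rev-nAAC against nAAC, and 3 to 3, 1 to 5 and 0 to 3 in Rev-nAAC against sham. Age steps gave 1 to 4 and interactions 0 to 1.
Signs of uncalled log2 differences changed without a single library, with ranges in Rev-nAAC against nAAC, 4 weeks, of Egr1 -0.58 to 0.68, Egr3 -0.89 to 0.55, Fos -0.81 to 0.56, Fosb -1.74 to 0.48, Fosl2 -0.23 to 0.20, Jun -0.0067 to 0.23, Junb -0.28 to 0.57. Ranges were, in Rev-nAAC against sham, 8 weeks, of Egr3 -0.10 to 0.46, Fos -0.0763 to 0.42. Ranges were, in Rev-nAAC against nAAC, 8 weeks, of Fosl2 -0.12 to 0.15. Ranges were, in Rev-nAAC against nAAC, 6 weeks, of Junb -0.18 to 0.76, Nr4a1 -0.59 to 0.57. Ranges were, in Rev-nAAC against sham, 6 weeks, of Nr4a1 -0.32 to 0.64. Ranges were, in nAAC against sham, 6 weeks, of Nr4a1 -0.12 to 0.52.
Limma voom reversed Egr1 (0.60), Fos (0.61) and Junb (0.61) in Rev-nAAC against nAAC at 4 weeks, Junb (-0.10) and Nr4a1 (-0.39) at 6 weeks, and Nr4a1 in Rev-nAAC against sham at 6 weeks (-0.0105). Without the 5 libraries Jun reversed in Rev-nAAC against nAAC at 4 weeks (-0.0489).

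The count of all genes called moved most in Rev-nAAC against nAAC at 4 weeks, from 394 to 663 with DESeq2, 710 with limma voom, 242 without the filter, 0 with only the compared groups, 1215 with nAAC replicate 1 as sham and 993 without the 5 libraries, and 42 to 1423 without single libraries. It was 4556 with limma voom against 2634 in Rev-nAAC against sham at 6 weeks. For the Rev-nAAC step from 6 to 8 weeks it was 1298, and 2668 with limma voom, 850 without the filter, 80 with only the compared groups, 662 without the 5 libraries and 374 to 2533 without single libraries.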
